A study of Homo sapiens with 20 samples.

Results

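CTCF binding after CTCF depletion was examined in LNCaP, a human prostate cancer cell line, through the CTCF ChIP-seq peak lists of 4 of the 20 libraries in the series. 2 libraries came from cells transfected with 20 nM of a non-targeting siRNA pool (control) and 2 from cells given 20 nM of a pool of siRNAs against CTCF, all taken 144 h after the first transfection. The question was which CTCF sites stay bound when the protein is depleted, and what the remaining binding looks like. Apart from the siRNA pool the labels give no difference between the 2 arms. The levels of CTCF mRNA and protein were not analysed here, so the lists themselves carry no measure of how far CTCF was depleted in each library. On chromosomes 1 to 22 and X the control libraries held 37969 and 46293 peaks and the CTCF siRNA libraries 3711 and 7716. The mean after CTCF siRNA was 5714 ± 2832 peaks (SD, n = 2) against 42131 ± 5886 (SD, n = 2), or 13.6% of control. The groups did not overlap, but the exact two-sided permutation test on 2 against 2 libraries cannot go below the p of 0.33 that it gave, here and for every comparison of library values in this text.

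CTCF is a zinc-finger protein that reads a long DNA motif and, together with the cohesin ring complex, marks the ends of chromatin loops and the borders between domains. Loops form mostly between sites whose motifs point towards each other, the convergent orientation. Binding to part of its motif is known to be sensitive to methylation of CpG dinucleotides, and many CTCF sites in mammals lie in copies of transposable elements.

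A control site was a merged region with a peak in both control libraries, and a kept site was a control site that also held a peak in both CTCF siRNA libraries. Of 33377 control sites, 3091 were kept, a background share of 9.26% (95% Wilson interval 8.95 to 9.58). This interval and the others below cover counting error only. The 2 depleted libraries differed in how many sites they held, and the study's list of libraries gives CTCF siRNA replicate 1 fewer reads than each of the other 3, so the part of sequencing depth in that gap was not tested. CTCF siRNA replicate 1 held a peak at 3348 control sites, 10.0% of them, and replicate 2 at 6881, or 20.6%. Of the sites found in replicate 1 all but 257 (0.770% of control sites) were also found in replicate 2, whereas 3790 were found in replicate 2 alone. No peak was left in either library at 26239 control sites, 78.6%. The kept sites are therefore close to the list of replicate 1, and shares are mostly given for each library as well. A site without a peak is one that fell below the calling threshold, and less CTCF per cell cannot be told apart from fewer cells with CTCF bound.

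The sequences below are shown because they recur at control sites. The CTCF core consensus, 14 letters long, was looked for on both strands within 100 bp of the strongest control summit, with up to 2 mismatches, and each match was read with 8 bases on each side. Among 24713 control sites with a match, 24163 had a 30-base stretch found at no other control site, and 4 stretches recurred at 10 or more. These 4 differ from each other at few bases and are shown in motif orientation with the core in capitals.
Recurrent stretch 1: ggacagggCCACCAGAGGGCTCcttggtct
Recurrent stretch 2: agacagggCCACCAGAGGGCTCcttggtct
Recurrent stretch 3: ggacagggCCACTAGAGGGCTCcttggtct
Recurrent stretch 4: agacagggCCACTAGAGGGCTCcttggtct

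Stretch 1 was present at 70 control sites and stretch 2 at 37, and none of these 107 sites was kept. A count of 0 of 107 allows a share of up to 2.80% (3 counts), or 3.47% as the upper Wilson limit. CTCF siRNA replicate 1 had a peak at 0 of the 107 and replicate 2 at 6. They were of middling strength in control cells. Their median fold enrichment, the height of a peak over its local background, was 12.1 in control replicate 1 and 16.3 in control replicate 2, and the strongest reached 30.6 and 49.0. If sites of each strength had been kept at the rate of all control sites of that strength, 9.60 of the 107 would have been kept, 10.7 found in replicate 1 and 22.4 in replicate 2. The 107 sites lay on all 23 chromosomes, 43 of them between genes and 55 in introns. Stretch 3 was present at 14 sites, of which 2 were kept, and stretch 4 at 11, of which 1 was kept, against 3.61 and 1.33 from their strength. All 229 control sites within 4 base differences of stretch 1 were kept in 13 cases (5.68%, interval 3.35 to 9.47), against 13.2% from their strength. In replicate 1 a peak was found at 14 of them, against 32.3 from strength, and in replicate 2 at 38 (16.6%), against 29.4%. The authors dropped reads that mapped to several positions, and what that did at such near-identical copies was not tested. One copy of stretch 1 lies in an intron of TUBGCP2, a gene of the microtubule-nucleating complex, at chr10:135127488-135127517 on the plus strand (hg19), with a control fold enrichment of 28.4 and 33.7 and no peak left after CTCF siRNA. The most enriched copy of stretch 2 lies between genes at chr16:3216113-3216142, minus strand, 22053 bp from the olfactory receptor gene OR1F1, with 30.6 and 49.0 in control cells and a peak in CTCF siRNA replicate 2 only. These sequence groups were chosen after the values were seen.

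Strength in control cells ordered the kept share. Control sites were put into 10 strength classes of equal size by the mean of their within-library ranks of fold enrichment in the 2 control libraries. In class 1, the weakest, 48 of 3337 sites were kept (1.44%), in class 5 2.97%, in class 8 13.6% and in class 10 1255 of 3338 (37.6%). In replicate 1 class 10 was kept at 38.3% and in replicate 2 at 73.2%. In both libraries the share was flat over classes 1 to 3 and higher in each class from there.

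**Figure D1:**
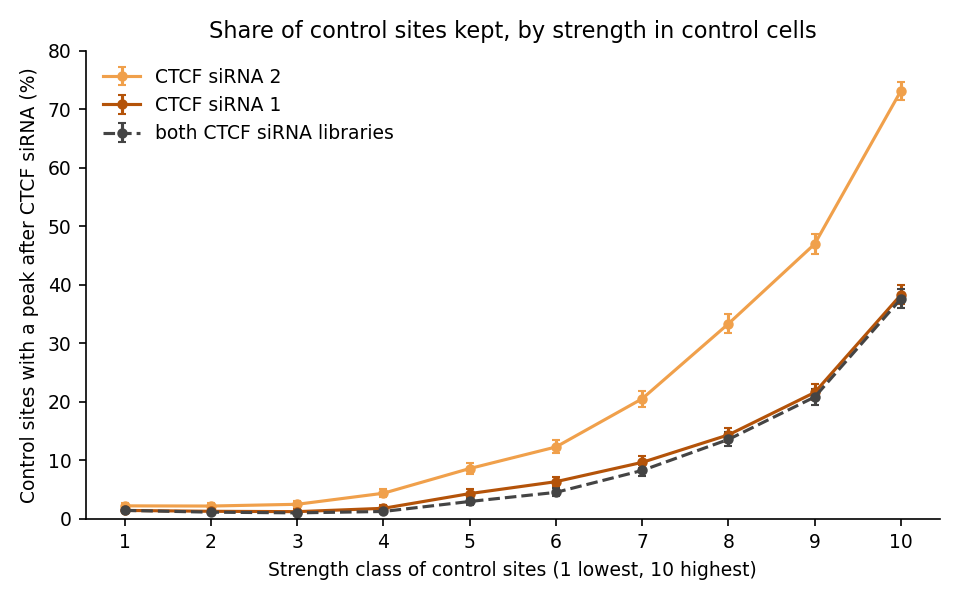
Share of control sites with a peak after CTCF siRNA (y axis, percent) against the strength class (x axis), for CTCF siRNA replicate 1, replicate 2 and both, with 95% Wilson intervals as bars. Both libraries climb with control strength, to 38.3% and 73.2% in class 10.

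The kept sites were strong in control cells and less enriched after CTCF siRNA. Over the 3091 sites, all with a peak in each library, the median fold enrichment was 22.4 and 26.1 in the controls and 9.25 and 13.7 in the depleted libraries. The mean of the 2 medians after CTCF siRNA, 11.5 ± 3.11 (SD, n = 2), was 47.2% of the control mean of 24.2 ± 2.64 (SD, n = 2), a log2 difference of -1.10. The highest value at any kept site was 72.2 and 72.3 in the controls and 49.4 and 54.8 after depletion. This is 1 value per library and need not be the same site. The 90th percentile after depletion was 53.5% of control and the 10th percentile 55.0%. In strength class 10 the medians were 30.2 and 36.6 in the controls and 10.6 and 18.7 after depletion. At 2394 kept sites (77.5%) both values after CTCF siRNA were below both control values. Fold enrichment was not scaled between libraries, so ranks within a library are given beside it. CTCF siRNA replicate 1 had the fewest reads, and the part of read depth in the lower fold enrichment was not tested. Among all peaks of its own library the median kept site stood at percentile 87.1 and 89.6 in control cells, and at percentile 54.8 in CTCF siRNA replicate 1 and 76.6 in replicate 2. The lists differ in length, and if the kept sites led each list their median would stand at 95.9 and 96.7 in the controls, 58.4 in replicate 1 and 79.97 in replicate 2. The lower percentiles after depletion therefore do not show a fall in rank.

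The order of the kept sites changed as well. Spearman's rho of fold enrichment over the 3091 sites was 0.76 between the control libraries and 0.55 between the CTCF siRNA libraries. Between control replicate 1 and the CTCF siRNA libraries it was 0.29 and 0.46, and between control replicate 2 and them 0.23 and 0.55. Of the 309 most enriched kept sites in each library, 189 were shared by the control libraries, 156 by the CTCF siRNA libraries, and 64 to 111 by a control and a CTCF siRNA library. By rho CTCF siRNA replicate 2 was as close to control replicate 2 as to its own replicate, whereas it shared 111 of the 309 sites with the former and 156 with the latter.

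**Figure D2:**
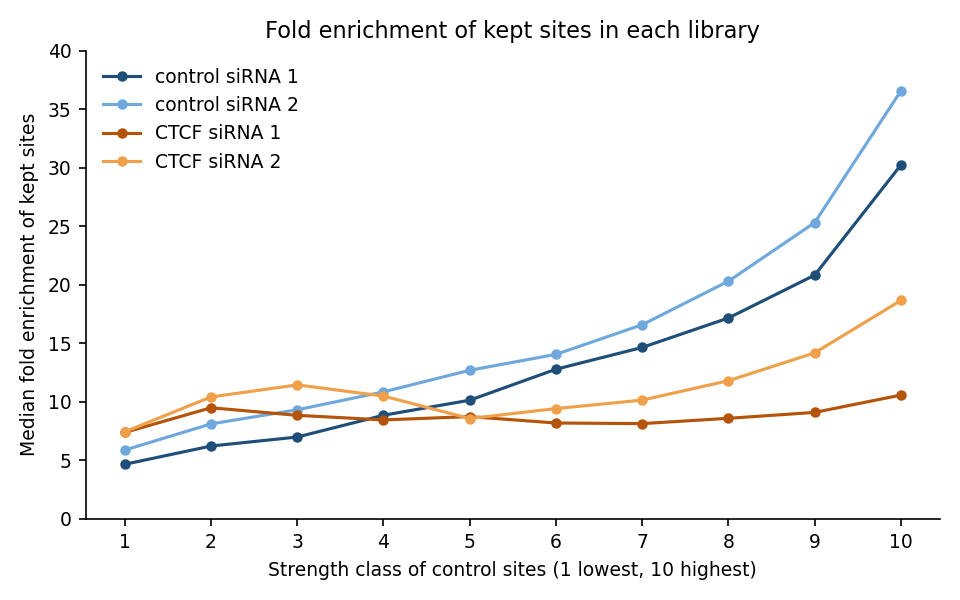
Median fold enrichment of kept sites (y axis) by strength class (x axis), 1 line per library. The control lines climb to 30.2 and 36.6 in class 10, while the line of CTCF siRNA replicate 1 stays between 7.38 and 10.6 and that of replicate 2 ends at 18.7.

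Replicate 1 was nearly flat across the kept sites. Its median fold enrichment lay between 8.14 and 10.6 from class 2 to class 10 of control strength, whereas in replicate 2 it went from 8.57 in class 5 to 18.7 in class 10. The study lists fewer reads for replicate 1 than for the other libraries, and the part of depth in this flatness was not tested. In classes 1 to 3 the order between treatments was turned round. The 120 kept sites there had a median fold enrichment of 5.63 and 7.46 in the controls and 8.34 and 9.47 after depletion. These sites differed from the other kept sites in sequence, which the ranking did not use. The core motif was present at 19 of the 120 (15.8%), against 59.0% of the 9893 sites of the same classes that were not kept and 92.5% of the 2403 kept sites of classes 8 to 10. Their widths did not shrink either, with medians of 296 and 348 bp in the controls and 343 and 349 bp after depletion. At 107 kept sites (3.46%) both values after CTCF siRNA were at or above both control values, and the motif was present at 8 of them. Of the 120 weak kept sites, 8 lay within 1 Mb of an assembly gap. A weak control site enters the kept set only if its enrichment after CTCF siRNA passed the calling threshold, so a part of this reversal is set by the definition.

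limma was fitted to log2 fold enrichment over all kept sites, with each library centred on its median, so that a difference is a change of place among kept sites. With Benjamini-Hochberg adjustment 197 sites passed an adjusted p of 0.05, 161 higher after CTCF siRNA (5.21% of those tested) and 36 lower (1.16%). The number and the balance of directions rest on CTCF siRNA replicate 2 and on the scaling. Without centring 2 sites were higher and 1342 lower, with lists of equal length 132 and 123, without control replicate 1 168 and 11, and without control replicate 2 127 and 8. Without CTCF siRNA replicate 2 0 sites passed (756 at an unadjusted p under 0.05), and with quantile normalisation, which also removes the narrower spread of replicate 1, 0 passed (691 unadjusted), whereas the fit reported had 463 higher (15.0%) and 250 lower (8.09%) at an unadjusted p under 0.05. Within-library ranks after CTCF siRNA were above both control ranks at 888 sites (28.7%) and below both at 808 (26.1%). A site that is weak in control cells was tested only if its peaks after CTCF siRNA passed calling, so a higher value there is set at least in part by that filter. The 161 higher sites were mostly of this kind, with 123 in classes 1 to 5 and the motif present at 33 (20.5%). The 36 lower sites all came from class 10, and 29 had the motif (80.6%). The classes use the same control values as the difference, and every site tested still had called peaks after CTCF siRNA. A large fall was therefore open only to sites high in control cells, so their class is set at least in part by definition.

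The 5 largest positive differences, all in classes 1 to 3 and so subject to that filter, are given as a description. They had no core motif within the 2 mismatches. The highest was between genes, 105269 bp from the actin-like gene ACTBL2, at chr5:56670396-56670756. Its fold enrichment was 3.55 and 6.35 in control cells, then 8.86 and 11.5 with CTCF siRNA, a centred log2 difference of 2.19 ± 0.30 (SE). A site within 1 kb of a transcription start at SNX16, which encodes a sorting nexin, had 3.99 and 5.11 in the controls and 9.56 and 9.28 after depletion. A site in an intron of a transcript 131957 bp from SORL1, a sorting receptor gene, had 5.42 and 11.1, then 13.1 and 19.4. At these 3 sites both values after CTCF siRNA lay above both control values. Only sites with ranks that do not overlap between the groups were picked, so this is set at least in part by the choice. The other 2, nearest to the zinc-finger genes ZNF33B and ZNF722, lay near assembly gaps and had fold enrichments of 1.62 to 2.12 in control cells and 3.02 to 5.01 after CTCF siRNA.

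The 5 largest negative differences were at sites of very high control enrichment, which the definition favours, and are also given as a description. In an intron of SORBS3, a gene of the vinculin-binding adaptor vinexin, fold enrichment was 60.7 and 67.0 in control cells, then 5.61 and 12.5 with CTCF siRNA, a centred log2 difference of -1.83 ± 0.30 (SE, limma adjusted p = 0.027). In an intron of NR6A1, an orphan nuclear receptor gene, it went from 42.1 and 64.4 to 7.58 and 7.38. Near RABL2A, which encodes a small GTPase, it went from 64.2 and 57.6 to 6.71 and 13.4, so this site ranked at percentile 99.9 and 98.6 of the kept sites in control cells and at 14.6 and 48.4 after CTCF siRNA. The remaining 2 lay 14009 bp from TNR (40.8 and 32.5, then 5.61 and 5.45), the gene of the matrix protein tenascin-R, and in an intron of TBC1D5 (34.1 and 44.5, then 6.71 and 5.50). All 5 were picked among sites past the limma threshold with ranks that do not overlap between the groups, so their separation is part of the choice. Both cores that could be printed are given here, to show that a large loss of enrichment occurred at a full match as well as at a poor one.
NR6A1, chr9:127474427-127474456, plus strand, 2 mismatches: agaatagaCCACTAGATGGAGActtaaaaa
RABL2A, chr2:114361766-114361795, minus strand, 0 mismatches: ccccggcgCCAGCAGGGGGCGCtggacagc

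The motif was more frequent and closer to the consensus at kept sites. It was present at 2733 kept sites (88.4%, interval 87.2 to 89.5) and at 72.6% of sites not kept, or 82.4% when these were weighted to the strength of the kept sites. In windows 1 kb away the shares were 6.05% and 5.15%. A core without a mismatch was present at 26.6% of kept sites and 16.2% of sites not kept at like strength. With kept shares averaged over the strength classes in the same proportions, 13.9% of sites with 0 mismatches were kept, 9.98% with 1, 6.87% with 2 and 5.87% with more. In replicate 1 those shares were 15.1, 11, 7.51 and 6.25%, and in replicate 2 31.1, 22, 16.7 and 14.6%, the same order in both.

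Mismatches were not spread evenly over the core. In classes 8 to 10, position 12, counted from the 5′ end of the core, carried a mismatch at 12.3% of 2223 kept sites with a motif and at 21.5% of sites not kept at like strength, a difference of -9.20 percentage points. The difference was -9.11 points in replicate 1 and -9.97 in replicate 2. Position 13 followed with -4.64 points, position 14 with -3.23 and position 11 with -2.79. At the first 5 positions the differences lay between -0.44 and 1.72 points. All differences of over 2 points were thus at positions 11 to 14, the 3′ end of the core.

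**Figure D3:**
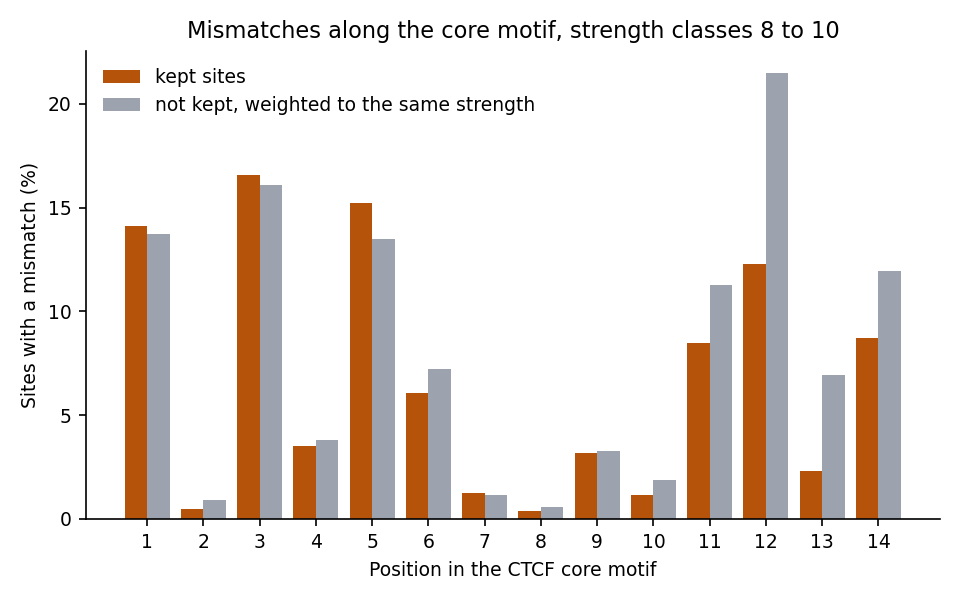
Share of sites with a mismatch to the consensus (y axis, percent) at each of the 14 positions of the CTCF core (x axis), for kept sites and for sites not kept, weighted to the same control strength, in classes 8 to 10. The bars part most at position 12, with 12.3% against 21.5%.

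A CpG at positions 12 and 13 of the core divided the sites further. Of 6029 control sites with one, 1202 were kept (19.9%, interval 18.9 to 21), of 13446 with another base after the consensus letter at position 12, 1214 (9.03%), and of 5238 with a mismatch at position 12, 317 (6.05%). Averaged over equal strengths the shares were 14.7, 8.33 and 5.84%. They were 16.5, 8.91 and 6.39% in replicate 1 and 30.4, 19.6 and 15.4% in replicate 2. In class 10 alone 456 of 914 sites with the CpG were kept (49.9%, interval 46.7 to 53.1), against 37.2% (34.8 to 39.7) and 28.2% (24.6 to 32.2). This grouping was chosen after the mismatch positions were seen, and strength can still differ within a class.

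CpG content around the summit moved with the kept share too. Kept sites held 5.86 CpG within 100 bp of the summit on average and sites not kept 3.68, or 4.24 at like strength, whereas the GC content of 52.1% was matched by 52.0% at like strength. Core matches lie in this window, so a CpG of the core is counted here again, and CpGs outside the core were not counted apart. At equal strength 5.41% of the 4426 sites without a CpG in the window were kept, 6.33% of sites with 1 or 2, 9.13% with 3 to 5, 12.1% with 6 to 10 and 15.5% with 11 to 20. In replicate 1 these shares were 6.06, 6.81, 9.58, 12.6 and 18.6%. Outside 1 kb of transcription starts the same groups gave 5.53, 6.46, 9.37, 13.1 and 18.4%. In replicate 2 the shares over all sites were 12.9, 16.4, 21.8, 26.7 and 26.9%, so the last step was absent there. The 337 sites with 21 or more CpG gave 15.5% in both libraries, 23.6% in replicate 1 and 18.3% in replicate 2. The recurrent stretches did not follow this order, since the 70 sites with stretch 1 held 7.14 CpG on average and none was kept.

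The 8 commonest exact cores at control sites show how uneven the shares were. Of 208 sites with CCAGCAGAGGGCAG 43 were kept (20.7%), against 14.9% from their strength. Of 154 with CCAGCAGGTGGCAG 33 were kept (21.4%), against 13.8%. Of 180 with CCACCAGGGGGCAG 34 were kept (18.9%), against 19.7%. The core of stretches 1 and 2, CCACCAGAGGGCTC, was at 165 sites, of which 2 were kept (1.21%, interval 0.33 to 4.31), against 9.63%, and neither of those 2 lay in a recurrent stretch. The other 4 of the 8 cores were kept at 14.3 to 18.6%.

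Peaks at kept sites became narrower. Median width was 403 and 432 bp in the controls and 270 and 339 bp after depletion, a difference of -113 bp between the group means, and the 90th percentile was 570 and 634 bp against 353 and 433 bp. Width and enrichment go together, so widths were also read at peaks with a fold enrichment of 10 to 15. There they were 361 and 367 bp in the controls and 299 and 322 bp after depletion, still without overlap but with a smaller difference. This range held 384 and 288 kept-site peaks in the controls and 899 and 943 after depletion, so the sites were not the same. The part of read depth in peak width was not tested. Among all peaks, 4.44% and 5.53% had the smallest width of 200 bp in the controls and 10.9% and 9.77% after depletion.

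Summits moved little. The median distance between the summits of one site was 12 bp for the control pair, 15 to 18 bp for the 4 pairs of a control and a CTCF siRNA library, and 20 bp for the CTCF siRNA pair. Distances over 50 bp occurred at 134 sites in the control pair, 237 to 337 between treatments and 465 in the CTCF siRNA pair. The distance between treatments was thus no larger than that between the 2 depleted replicates. At the 2733 kept sites with a motif the summit lay within 20 bp of the motif's centre at 63.0% and 59.3% in control cells and at 48.2% and 50.0% after CTCF siRNA, and the median signed offset stayed between -13.5 and -15.5 bp in all 4 libraries. Where the replicates of each treatment lay within 20 bp of each other, at 1169 sites, the median shift between treatments was 9 bp and 17 sites shifted by over 50 bp.

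The 3 largest of those shifts are named. The site in an intron of a transcript 5082 bp from SIGLEC7, a gene for an inhibitory receptor of immune cells, at chr19:51661528-51662408, had its control summits 15 bp apart and its CTCF siRNA summits 16 bp apart, and the 2 treatments differed by 333.5 bp. Its fold enrichment was 20.2 and 22 in the controls and 12.9 and 31.7 after depletion. The site 6184 bp from WNT9A, which encodes a secreted Wnt ligand, shifted by -155.5 bp, with 19.2 and 17.7 before and 8.28 and 9.51 after. The motif matches under the control summits of both are given to place the shift.
SIGLEC7, chr19:51661842-51661871, plus strand, 1 mismatch: gcatcacaCCACCAGGGGGAGCcatggagt
WNT9A, chr1:228141767-228141796, minus strand, 1 mismatch: ctagctggCCTGCAGGGGGCAGccccgcct
The last shift, 104.5 bp, was at a site near ROCK1 that lies by an assembly gap, with fold enrichments of 1.91 and 1.89 in control cells, then 3.80 and 2.77 with CTCF siRNA.

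The remaining sites were far apart. The median distance from one control site to the next was 45.2 kb, and from one kept site to the next 446 kb, leaving out pairs on either side of an assembly gap of at least 1 Mb. For sites found in replicate 1 it was 409 kb and in replicate 2 181 kb. The 3338 strongest control sites, a set of similar size, had a shorter median of 276 kb and fewer gaps over 1 Mb (646), but more over 5 Mb (79). Gaps over 1 Mb made up 27.6% of the gaps between kept sites (843) and 0.15% of those between control sites (50), and they covered 73.5% of the length between kept sites. There were 58 gaps over 5 Mb between kept sites and 0 between control sites. Wider gaps than between control sites follow from the smaller number of sites. Only the comparison with the strongest control sites, similar in number, bears on how kept sites are placed.

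**Figure D4:**
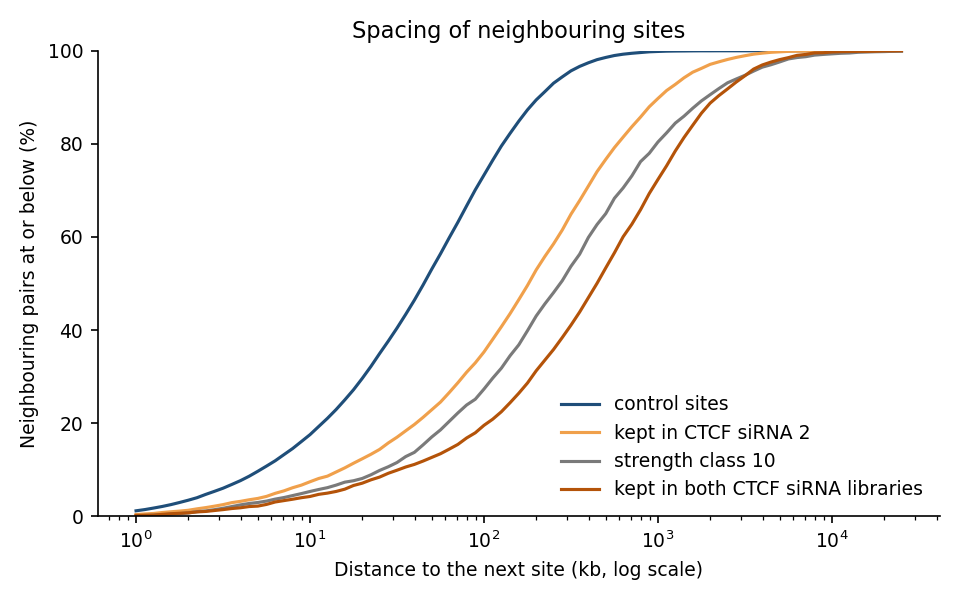
Share of neighbouring pairs (y axis, percent) at or below a given distance (x axis, kb, log scale) for control sites, sites kept in CTCF siRNA replicate 2, class 10 of control sites and sites kept in both libraries. The median moves from 45.2 kb for control sites to 446 kb for kept sites.

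The longest stretch without a kept site was 22.5 Mb on chromosome 13, from a site 99962 bp from OLFM4 (olfactomedin 4) at chr13:53725918-53726352 to one in LMO7, a LIM-domain gene, at chr13:76269954-76270286. It held 53 control sites, of which 2 had a peak in replicate 2 and 0 in replicate 1. The next, 18.9 Mb on chromosome 4 between PDLIM5 and ANK2 (ankyrin 2), held 144 control sites, 13 of them found in replicate 2 and 1 in replicate 1. After it came 18.6 Mb on chromosome 13 between KCTD12 and the claudin gene CLDN10, with 77 control sites, of which 5 were found in replicate 2. Their control sites had median percentiles of 28.9 to 41.6, under the middle of all control sites. At the other end, the window with the most kept sites was 54 to 55 Mb on chromosome 12, with 11 of 37 control sites kept, near genes that include CBX5, for heterochromatin protein HP1 alpha, and ITGA5, an integrin gene. This window also holds HOXC genes, and a kept site near HOXC6, HOXC8 and HOXC9 counts in the HOX list below as well. Chromosome 20 held 9 of 22 at 48 to 49 Mb, around SNAI1 and CEBPB, both genes of transcription factors. Another 3 windows tied at 8, on chromosomes 20 (28 control sites), 22 (32) and 17 (36). Of 2850 windows of 1 Mb with a control site, 1245 (43.7%) had no kept site.

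Kept sites lay next to each other somewhat more often than strength alone gives. The neighbour of a kept site was kept in 12.1% of cases, where its strength gave 10.6%, and the neighbour of a site not kept in 8.95%, where strength gave 9.13%. Under 10 kb the shares were 16.6% (12.3% from strength) and 11.3% (10.7%). From 10 to 50 kb they were 12.8% (11.2%) and 9.44% (9.81%). From 50 to 200 kb they were 9.35% (9.42%) and 8.18% (8.48%), so the excess next to kept sites was limited to distances under 50 kb. Under 10 kb the neighbour of a found site was found in 17.7% of cases in replicate 1 (12.9% from strength) and in 31.3% in replicate 2 (27.1%).

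The orientation of neighbouring motifs differed at short distance. Between consecutive kept sites under 100 kb apart, 77 of 493 pairs were convergent (15.6%, interval 12.7 to 19.1) and 38.3% divergent, that is, pointing away from each other. Consecutive control sites had 20.1% and 28.0%, and class 10 of control sites 23.6% (20.6 to 26.7) and 30.1%. In replicate 1 the kept pairs gave 15.7% and 37.5%, and in replicate 2 18.3% and 32.2%. At 100 kb to 1 Mb 28.0% of kept pairs were convergent, against 33.7% of control pairs and 26.5% of pairs in class 10. Consecutive kept sites can have lost sites between them, so the pairs are not the same as in control cells.

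Position relative to genes was described with the same 4 classes in each library. Intergenic sites were kept at 12.4% (1425 of 11495, interval 11.8 to 13), sites within 1 kb of a transcription start at 8.77%, exonic sites at 7.77% and intronic sites at 7.24%. At equal strength the shares were 11.9, 8.44, 6.96 and 7.70%. Intergenic sites had the largest share in both libraries, 12.7% in replicate 1 and 23.7% in replicate 2 at equal strength, against 8.32% and 18.8% for introns.

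The kept share ranged over 8.11 percentage points between chromosomes. It was highest on chromosomes 20 (12.9%, 116 of 897), 1 (11.4%) and 15 (11.1%), and lowest on X (4.82%, 48 of 996), 18 (6.24%) and 4 (6.33%). Over the 23 chromosomes, which share libraries, the shares in the 2 CTCF siRNA libraries had a Pearson r of 0.83 and a Spearman rho of 0.79. Chromosome 20 came first in replicate 1 and second in replicate 2, and X was last in both. Chromosome 19, in contrast, came first in replicate 2 with 27% and ninth in replicate 1. Much of the order went with strength, since the kept share and the median control percentile of a chromosome's sites had an r of 0.75. At equal strength the range narrowed to 5.38 points, and the order changed. Chromosome 13 then came first with 12.7%, although only 48 of its sites were kept, and chromosome 16 last with 7.33%, while X stood at 8.25%. The standardised shares of the 2 libraries had an r of 0.48. LNCaP cells carry a rearranged, near-tetraploid genome, and copy number was not analysed here.

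**Figure D5:**
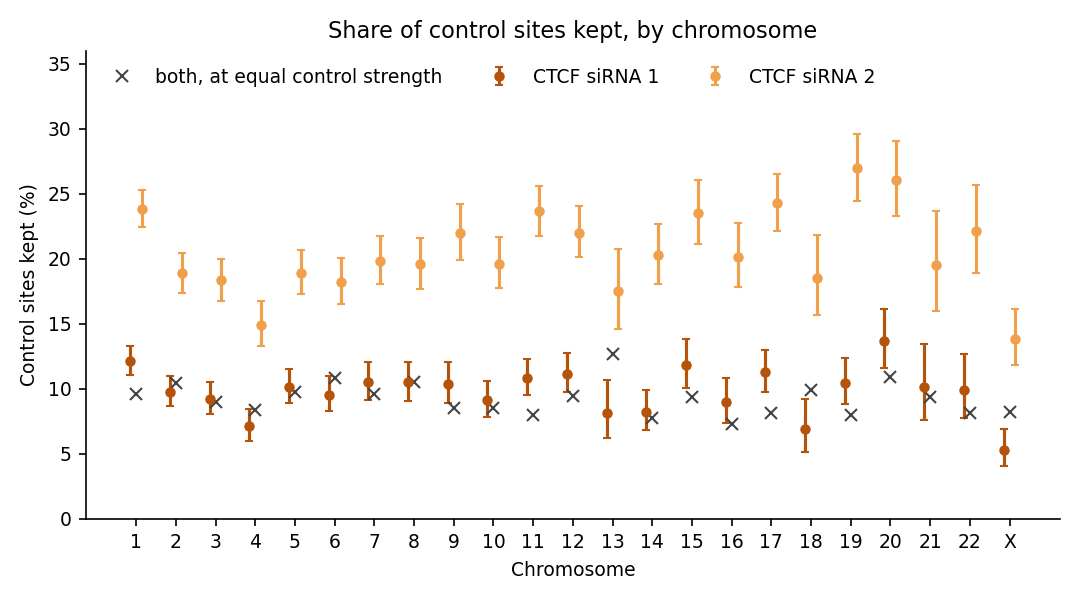
Share of control sites kept (y axis, percent) on each chromosome (x axis) in CTCF siRNA replicates 1 and 2, with 95% Wilson intervals, and as crosses the share in both libraries at equal control strength. Chromosome X is lowest in both libraries, and the crosses lie closer together than the points.

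Gene lists were read as counts of control sites within 10 kb of the gene bodies, beside the background of 9.26%. Of 23 sites at HOX genes, which specify position along the body, 6 were kept (26.1%, interval 12.5 to 46.5), with 8 found in replicate 1 and 10 in replicate 2. Their median control percentile was 63.6, and their strength gave 10.3%, or 2.37 sites. They included 2 of 2 sites at HOXA9. Imprinted genes had 4 of 35 kept, which were 2 of 5 sites at KCNQ1, 1 of 4 at IGF2 and 1 of 2 at CDKN1C, and 0 of 4 at H19. Androgen-induced prostate genes had 1 of 18 kept, near ACP3, which encodes prostatic acid phosphatase, and 0 of 3 each at FKBP5 and SLC45A3. Prostate lineage transcription factors had 1 of 8, at GRHL2. CTCF and cohesin genes had 1 of 27, at CTCFL, the testis-expressed paralogue of CTCF, and the 6 sites at the cohesin gene STAG2 were all lost. Clustered protocadherin genes, where CTCF is known to guide promoter choice, had 2 of 44, with a median control percentile of 33.2. Ribosomal protein genes had 7 of 80 and olfactory receptor genes 8 of 74. Apart from the HOX genes each of these lists had an interval that included the background share. HOX genes lie in clusters, so their sites are neighbours and not independent, as the interval takes them to be. Several lists were read, chosen with earlier results known, so the HOX interval is not a test.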

How the data were processed

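CTCF ChIP-seq was read from 4 LNCaP peak lists. The authors aligned single-end reads to hg19 with Bowtie, dropped duplicates and reads with several positions, and ran MACS2 on each library by itself, without pooling. The deposited lists give fold enrichment as a ratio to local background, not scaled between libraries, and p and q values as −log10. The largest deposited q-value was 0.0487 and 0.0446 in the controls and 0.0499 in CTCF siRNA replicate 2. In CTCF siRNA replicate 1 it was 0.00756, so that list ended at a smaller q-value. No input library is stated in the sources used here, and the lists hold no read totals. The study lists fewer reads for CTCF siRNA replicate 1 than for the other 3 libraries, so depth limits what it can call, beside the number of libraries and the calling threshold. Replicates are biological duplicates per the study's methods.

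Peaks overlapping by at least 1 bp were merged, and a site's strongest peak per library gave its fold enrichment, width and summit. Sequence came from GRCh37 (the same assembly as hg19, with chromosome lengths checked against the lists) and annotation from GENCODE release 44 on that build, of which protein-coding and lncRNA genes were used. "At like strength" means weighted or averaged over the 10 classes of control fold enrichment. Strength can still differ within a class. In class 10 the control medians were 30.2 and 36.6 at kept sites, and 28.5 and 35.3 at all sites of the class. Coordinates count from 1. Library values were compared by exact permutation, kept sites by limma 3.58.1 in R 4.3.3. Python 3.11.15, numpy 2.4.6, pandas 2.3.3, scipy 1.17.1 and matplotlib 3.10.9 were used. Site building and the limma step were tested on simulated data. Samples were grouped by their titles. Members, gene lists and sequence groups were chosen with earlier results of these data known. Sites named were the 5 largest differences each way past the limma threshold with ranks that do not overlap, the 3 largest shifts, longest gaps and densest windows, the 3 chromosomes at each end and the gene lists. Sequences on chromosome 8 were not printed. The result of 1 further gene list is not reported here. The alternatives were a q-value of at most 0.001, an overlap of 50%, lists of equal length, other scalings, a replicate block, single-peak sites and leaving out each library. Histone and other CTCF libraries of the series were not used here.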

Additional observations from a re-analysis of the deposited data

How the results depend on the processing

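10 results were recomputed under the alternatives. Besides the limma count, none of the results that can take either sign changed direction. The kept count, summit distance, median gap and chromosome range cannot be negative, so direction says nothing about them. Of the recomputed values 56 were classed as unchanged, and the other 23 are given here. Unchanged meant a move of less than the replicate spread, or for counts of less than 1.5 times. Peaks per library, median fold enrichment and median width were classed by the exact permutation test instead. With 2 libraries per group that test cannot pass, so the class says nothing about their stability. The log2 difference in median fold enrichment, for example, went from -1.10 to -1.39 without CTCF siRNA replicate 2. With every list shortened to that of CTCF siRNA replicate 1, 972 sites were kept, the summit distance between treatments was 14.9 bp (16.8 bp as reported, averaged over the pairs), the median gap 925 kb, the range over chromosomes 76 percentage points (chromosomes then hold few control sites) and the motif excess of kept sites 8.13 points (15.8 as reported). With a peak in either library 7138 sites were kept at a median gap of 174 kb. The motif excess was 26.5 points with up to 1 mismatch and 6.03 at like strength. Leaving out each library in turn gave 3101 to 6881 kept sites, summit distances of 16 to 18.5 bp, median gaps of 181 to 443 kb, chromosome ranges of 5.82 to 13.1 points, a difference of 32.0 to 70.9 points between strength classes 10 and 1 (36.2 as reported) and motif excesses of 16.2 to 25.1 points. The most kept sites, the shortest gap and the widest chromosome and class ranges came without CTCF siRNA replicate 1, which had the shorter list and the fewer reads, and the largest motif excess without control replicate 1.

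The number of kept sites past the limma threshold, 197, was 0 with quantile normalisation, 1344 without centring (1342 of them lower) and 0 to 1009 when a library was left out, with 0 without CTCF siRNA replicate 2 and 1009 without replicate 1. With the replicate number as a block it was 491. Deviations of same-numbered replicates correlated at 0.30 over sites, but 2 numbers that the labels tie to no shared batch do not make pairs. With 2 libraries per group no library value can pass an exact test.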
